A study of Ovis aries with 16 samples.

Results

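Mitochondrial ribosomal protein genes were followed in the livers of fetal sheep from normoxic and hypoxic pregnancies. The 5 genes *MRPL11*, *MRPL13*, *MRPL16*, *MRPS23* and *MRPS31* make up the set, out of 26478 genes with an entry in the count table and 8580 that had enough reads to be tested. They were chosen by the contrast of hypoxic with normoxic pregnancy in these same livers. The reason is that, with the sources used here, an identifier could be joined to a symbol only through the study's supplementary table of called genes. Their difference between the treatments, over all livers or fewer, is therefore given as a description, and nothing is read from test calls on it. That table names 4 further genes of the mitochondrial ribosome, *MRPL15*, *MRPL17*, *MRPL34* and *MRPS22*, which are given for comparison and were selected on the same contrast.

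The mitochondrial ribosome translates the few messenger RNAs made from mitochondrial DNA, all of which encode subunits of the respiratory chain and ATP synthase. Its own proteins are encoded in the nucleus, made in the cytosol and imported into the organelle, where they assemble with ribosomal RNAs from mitochondrial DNA into a large (MRPL) and a small (MRPS) subunit. The liver is rich in mitochondria, and a working mitochondrial ribosome needs its protein subunits together.

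Liver RNA came from singleton fetuses of Welsh Mountain ewes, collected at 0.9 of gestation, with 1 polyA-selected library for each liver. CON denotes 9 normoxic pregnancies, with 5 male and 4 female fetuses. HOX denotes 7 hypoxic pregnancies, with 3 males and 4 females, in which the ewe breathed 10% O2 for 30 days. The exact day of collection differs between the sample labels and the study's methods. Total counts were 24065959 to 29353692 reads per CON liver and 23955166 to 33952503 per HOX liver.

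The library of HOX animal 1, a female and the tenth library of the series, stood apart from the rest. Its score on the leading principal component of log2 CPM was 64.4, and those of the other 15 livers were −15.6 to 6.23. It also had the highest total, 33952503 reads. Over all 8580 genes tested, that liver held the highest value of the 16 livers in 21.9% and the lowest in 23.6%. Fold changes and correlations of the 5 genes in HOX are therefore given with and without this liver. Expression is given as CPM, the usual depth-scaled read count, taken over the reads on tested genes after TMM scaling, and a log2 fold change is that of HOX against CON from edgeR with its standard error (SE).

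All 5 genes were lower in HOX than in CON livers when HOX animal 1 was left out, with log2 fold changes of −0.40 to −0.31, and in that liver the genes lay far apart from each other. *MRPL11*, *MRPL13* and *MRPS31* had their highest value of all 16 livers in HOX animal 1, *MRPL16* had its lowest there, and *MRPS23* was at the level of the other HOX livers. Among the 9 CON livers none of the 10 pairs of these genes passed the threshold for correlation. In bulk RNA, fewer cells of a type and less RNA per cell cannot be told apart.

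**Figure D1:**
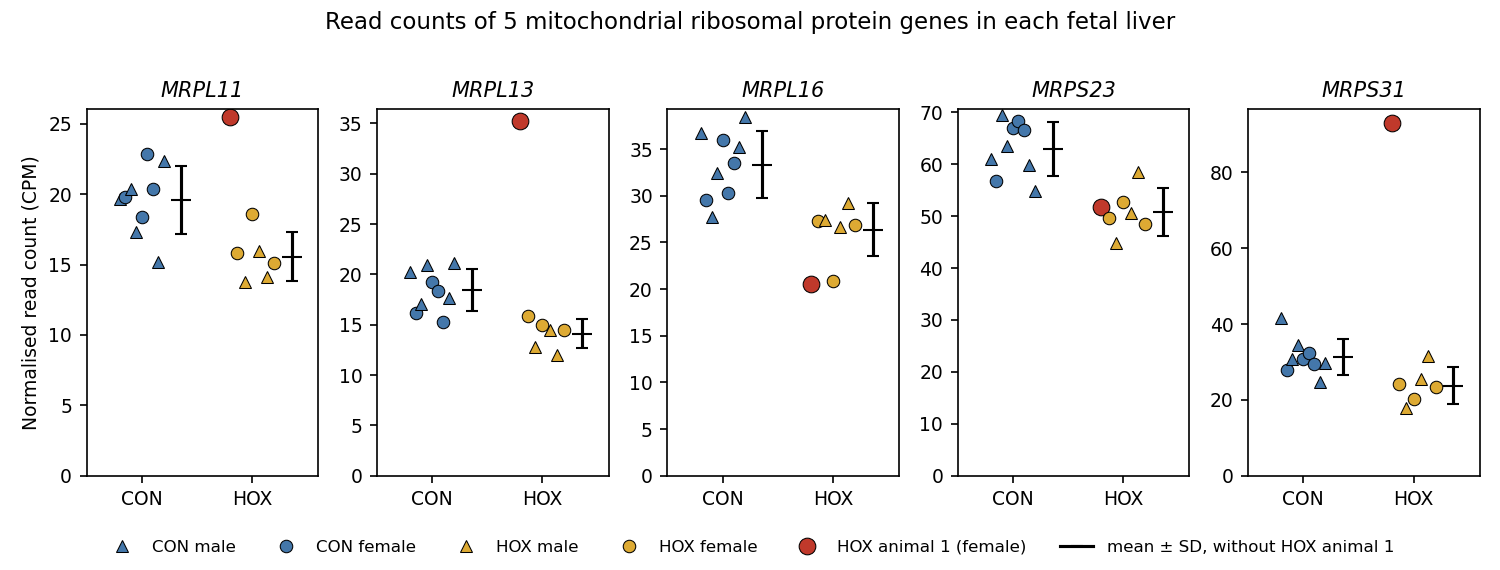
Normalised read counts (CPM, linear axes from 0) of the 5 genes in each of 9 CON and 7 HOX livers, with triangles for males, circles for females and bars for the mean ± SD of the CON livers and of the 6 HOX livers without animal 1. HOX animal 1, in red, lies above every other liver for *MRPL11* (25.5 CPM), *MRPL13* (35.3 CPM) and *MRPS31* (92.9 CPM) and below every other liver for *MRPL16* (20.5 CPM).

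*MRPL11* (ENSOARG00020006523) encodes a large subunit protein at the base of the stalk to which translation factors bind. Its expression in CON livers was 15.2 CPM at the lowest, 19.8 at the median and 22.9 at the highest. In the 6 HOX livers other than animal 1 the lowest, median and highest values were 13.7, 15.5 and 18.6 CPM. The groups overlapped, since 3 of these 6 HOX livers lay below the lowest CON liver and 6 of 9 CON livers lay above the highest of the 6. HOX animal 1 had 25.5 CPM, 1.64 times the mean of the other HOX livers and above every CON liver. The group values were 19.6 ± 2.39 CPM (SD, *n* = 9) in CON, 17.0 ± 4.06 (*n* = 7) in HOX and 15.6 ± 1.75 (*n* = 6) in HOX without animal 1. The log2 fold change was −0.21 (SE 0.128) with all livers and −0.33 (SE 0.102) without HOX animal 1.

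*MRPL13* (ENSOARG00020012751) encodes a large subunit protein with a counterpart in the bacterial ribosome. The CON livers held 15.3 to 21.2 CPM, with a median of 18.3. The 6 HOX livers other than animal 1 held 12.0 to 15.9 CPM, with a median of 14.5. Of those 6 livers 5 were below the lowest CON liver, so the overlap of the groups rested on HOX animal 2 and CON animal 7. HOX animal 1 stood far above both groups, at 35.3 CPM, 2.50 times the mean of the other HOX livers and 1.91 times that of CON. Its read count was 1211, against 316 to 492 in the other HOX livers. Mean expression was 18.5 ± 2.09 CPM (SD, *n* = 9) in CON, 17.1 ± 8.10 (*n* = 7) in HOX and 14.1 ± 1.44 (*n* = 6) without HOX animal 1. The corresponding log2 fold changes were −0.10 (SE 0.188) with all HOX livers and −0.38 (SE 0.0968) without that liver. Leaving out any other liver moved the value less than leaving out this liver did.

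*MRPL16* (ENSOARG00020016513) encodes a large subunit protein close to the centre where peptide bonds are formed. The lowest, median and highest CON livers had 27.7, 33.5 and 38.4 CPM. For the 6 HOX livers other than animal 1 these values were 20.9, 27.1 and 29.2 CPM. Here, 5 of the 6 lay below the lowest CON liver, and 8 of 9 CON livers lay above the highest of the 6. HOX animal 1 had 20.5 CPM, the lowest of the 16 livers and close to the 20.9 CPM of HOX animal 4. The means were 33.3 ± 3.60 CPM (SD, *n* = 9) in CON, 25.5 ± 3.40 (*n* = 7) in HOX and 26.4 ± 2.83 (*n* = 6) in HOX without animal 1. With all livers the log2 fold change was −0.38 (SE 0.0965), and without HOX animal 1 it was −0.33 (SE 0.0906).

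*MRPS23* (ENSOARG00020022143) encodes a small subunit protein that the bacterial ribosome lacks. CON livers ranged from 54.8 to 69.4 CPM around a median of 63.4. The 6 HOX livers other than animal 1 ranged from 44.8 to 58.4 CPM around a median of 50.1. HOX animal 6 alone overlapped with CON, and all other HOX livers, animal 1 included, lay below every CON liver. HOX animal 1 was unremarkable for this gene, at 51.7 CPM or 1.02 times the mean of the other HOX livers. The group means were 63.0 ± 5.20 CPM (SD, *n* = 9) in CON, 50.9 ± 4.21 (*n* = 7) in HOX and 50.8 ± 4.60 (*n* = 6) without HOX animal 1. The log2 fold change was −0.31 (SE 0.0758) both with and without that liver.

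*MRPS31* (ENSOARG00020004052) encodes another small subunit protein without a bacterial counterpart. In CON livers its lowest, median and highest values were 24.7, 30.8 and 41.6 CPM. In the 6 HOX livers other than animal 1 they were 17.8, 23.7 and 31.7 CPM. The groups overlapped, with 4 of the 6 HOX livers below the lowest CON liver and 3 of 9 CON livers above the highest of the 6. HOX animal 1 had 92.9 CPM, 3.91 times the mean of the other HOX livers and 2.97 times that of CON, from 3191 reads where the other HOX livers had 482 to 832. The mean was 31.3 ± 4.72 CPM (SD, *n* = 9) in CON, 33.6 ± 26.5 (*n* = 7) in HOX and 23.8 ± 4.80 (*n* = 6) without HOX animal 1. The direction of the group difference turned with that liver, from a log2 fold change of 0.10 (SE 0.280) with it to −0.40 (SE 0.125) without it. With that liver kept and the animal number as a replicate block it was −0.19 (SE 0.214). The numbers did not pair the livers, and CON livers without a HOX liver of their number do not inform that value. It is given as an alternative only. DESeq2 replaced the count of HOX animal 1 by 956 reads as an outlier before its fit of the 16 livers, and its log2 fold change of −0.35 (SE 0.131) holds that replaced count.

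Across the 6 HOX livers other than animal 1, every value of *MRPL11*, *MRPL13*, *MRPL16* and *MRPS23* lay below the CON mean of its gene, and for *MRPS31* 5 of 6 values did. All 6 HOX livers were below the CON mean in 10.8% of the genes tested. None of the 5 genes had all 6 of these livers below every CON liver, which 0.198% of the genes tested did, and none had all 7 HOX livers below every CON liver, which 0.0699% did. With edgeR at an adjusted *P* under 0.15, 0 of the 5 genes were called in the 16 livers and 0 without HOX animal 1, where 0.0583% and 0.141% of all genes tested were called. In the 16 livers that was 5 genes, named here after their values were seen: *GPD1*, *DNAJC22*, *FKBP1B*, *GSS* and ENSOARG00020010401. DESeq2 called *MRPL16* and *MRPS23* in the 16 livers, with 2.76% of all genes called, and all 5 genes without HOX animal 1, with 6.16% called. The study's table of 487 called genes holds all 5, so the fits of the 16 livers here did not return all of its calls. DESeq2 without HOX animal 1 did return those of the 5 genes, and the reason was not tested. The lower values of the 5 genes without that liver are thus not separate from the selection. These counts restate the contrast that chose the genes, and nothing is read from them.

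Seen liver by liver, the mean deviation of the 5 genes from their CON means was −0.14 to 0.14 on the log2 scale in CON livers. Across the 6 HOX livers other than animal 1 it was −0.52 (animal 3) to −0.26 (animal 6), and HOX animal 1 had 0.39. Within HOX animals 2, 5 and 7 the genes shifted almost evenly. The 5 deviations of HOX animal 5, for example, spanned −0.34 to −0.28. Within HOX animals 3, 4 and 6 they were uneven, and animal 4 spanned −0.66 for *MRPL16* to −0.06 for *MRPL11*. The span in HOX animal 1 was by far the widest, from −0.69 for *MRPL16* to 1.58 for *MRPS31*.

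**Figure D2:**
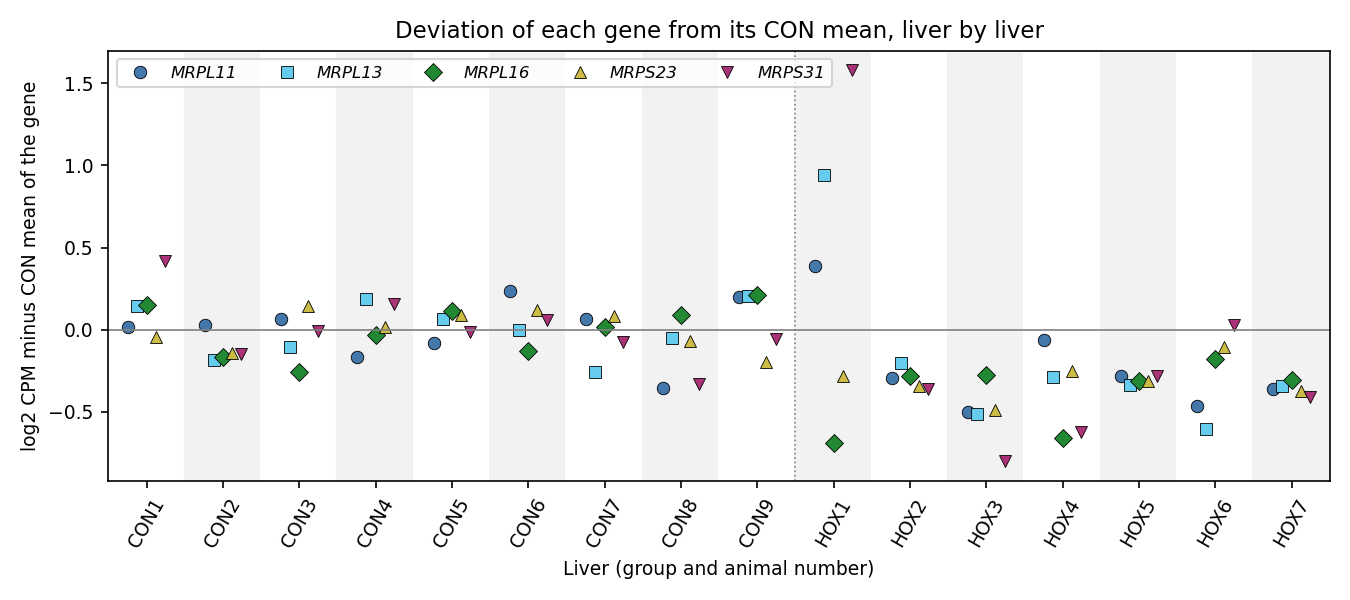
Deviation of each of the 5 genes from its own CON mean (log2 CPM, vertical axis) in each liver (horizontal axis, CON animals 1 to 9 and HOX animals 1 to 7), with a symbol for each gene and a grey line at 0. The 5 symbols lie close together in HOX animals 2, 5 and 7 and spread from −0.69 to 1.58 in HOX animal 1.

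The departure of HOX animal 1 from the other HOX livers was set beside that of all genes tested. Over the 8580 genes the difference on the log2 scale between this liver and the mean of the other 6 had a median of −0.06, a 5th percentile of −1.26 and a 95th percentile of 1.11. *MRPS31*, at 1.99, and *MRPL13*, at 1.32, were above the 95th percentile. *MRPL11*, at 0.71, was above the 75th percentile of 0.35. *MRPS23*, at 0.03, and *MRPL16*, at −0.35, lay between the 25th percentile of −0.49 and the 75th. In units of the SD among the other 6 HOX livers the distance was 8.84 for *MRPL13*, 6.93 for *MRPS31*, 4.58 for *MRPL11*, −2.12 for *MRPL16* and 0.248 for *MRPS23*.

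How tightly the 5 genes vary was first measured for each gene alone. In the CON livers the SD on the log2 scale was 0.182 for *MRPL11*, 0.165 for *MRPL13*, 0.158 for *MRPL16*, 0.121 for *MRPS23* and 0.208 for *MRPS31*, and the median over all genes tested was 0.238. A small SD within groups makes it easier for a gene to be called in the contrast that chose the set, so the values below that median are partly fixed by the selection. In the 6 HOX livers other than animal 1 the SD was 0.128 for *MRPS23* to 0.287 for *MRPS31*, where the median gene had 0.211, and *MRPS31* was the gene above that median.

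Pairs of genes were then correlated within a group, because a shared difference between CON and HOX would by itself make the genes correlate over all 16 livers. In the 9 CON livers the Pearson *r* of log2 CPM over the 10 pairs ran from −0.464 to 0.554 with a median of 0.103, and 6 of 10 pairs were positive. That median was −0.0797 without CON animal 8 and 0.189 without CON animal 9. Spearman's ρ ran from −0.5 to 0.617 with a median of 0.0583. None of the 10 pairs passed an adjusted *P* of 0.15 in the exact two-sided permutation test with Benjamini-Hochberg adjustment over the 10 pairs, and 0 had an unadjusted *P* under 0.05. The smallest *P* that 9 livers allow is 5.51e-06. *MRPL13* and *MRPL16* were the closest pair (*r* = 0.554, exact permutation *P* = 0.123, adjusted *P* = 0.685; ρ = 0.617, exact *P* = 0.0857, adjusted *P* = 0.592). Without the 2 livers farthest from the median of *MRPL13*, CON animals 7 and 9, their *r* was 0.622. The next pair was *MRPL13* with *MRPS31* (*r* = 0.514, exact permutation *P* = 0.155, adjusted *P* = 0.685; ρ = 0.533, exact *P* = 0.148, adjusted *P* = 0.592), with an *r* of 0.704 without the same 2 livers. At the other end was *MRPL16* with *MRPS23* (*r* = −0.464, exact permutation *P* = 0.206, adjusted *P* = 0.685; ρ = −0.5, exact *P* = 0.178, adjusted *P* = 0.592). That *r* became 0.101 without CON animals 3 and 9, so the negative relation rested on those livers.

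In the 6 HOX livers other than animal 1 the pairs spread more widely, from an *r* of −0.890 to 0.794 with a median of −0.0989, and 0 of 10 passed the threshold. The strongest was a negative relation of *MRPL11* with *MRPL16* (*r* = −0.890, exact permutation *P* = 0.0292, adjusted *P* = 0.292; ρ = −0.886, exact *P* = 0.0333, adjusted *P* = 0.333), with an *r* of −0.873 without HOX animals 3 and 4. *MRPS23* and *MRPS31* were the most alike by Pearson's *r* (*r* = 0.794, exact permutation *P* = 0.0708, adjusted *P* = 0.319; ρ = 0.657, exact *P* = 0.175, adjusted *P* = 0.438). Their *r* was −0.637 without HOX animals 3 and 6, so the likeness rested on those livers. *MRPL11* with *MRPL13*, the most alike by ρ, had *r* = 0.726 (exact permutation *P* = 0.0958, adjusted *P* = 0.319; ρ = 0.771, exact *P* = 0.103, adjusted *P* = 0.438) and 0.909 without HOX animals 3 and 4. *MRPL13* and *MRPL16*, the closest pair in CON livers, had *r* = −0.491 here (exact permutation *P* = 0.339, adjusted *P* = 0.694; ρ = −0.657, exact *P* = 0.175, adjusted *P* = 0.438). The smallest *P* that 6 livers allow in this test is 0.00278.

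Adding HOX animal 1 moved some pairs far and left *MRPL11* with *MRPL16* almost where it was. With all 7 HOX livers, *MRPL11* and *MRPL13* had *r* = 0.942 (exact permutation *P* = 0.00456, adjusted *P* = 0.0228; ρ = 0.857, exact *P* = 0.0238, adjusted *P* = 0.119) and *r* = 0.882 without HOX animals 1 and 4. *MRPL11* and *MRPL16* had *r* = −0.895 (exact permutation *P* = 0.00417, adjusted *P* = 0.0228; ρ = −0.929, exact *P* = 0.00675, adjusted *P* = 0.0675) and −0.595 without the same 2 livers. *MRPL13* and *MRPL16* had *r* = −0.733 (exact permutation *P* = 0.0190, adjusted *P* = 0.0635; ρ = −0.786, exact *P* = 0.0480, adjusted *P* = 0.160) and −0.261 without HOX animals 1 and 6, so that relation rested on them. These 3 of 10 pairs passed the threshold by Pearson's *r* with HOX animal 1, and 0 did without it, where there is also 1 liver fewer. *MRPL13* with *MRPS31* went from −0.241 without HOX animal 1 to 0.890 with it, and *MRPL11* with *MRPS31* from −0.185 to 0.807. The difference in correlation between CON and HOX livers was not tested.

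**Figure D3:**
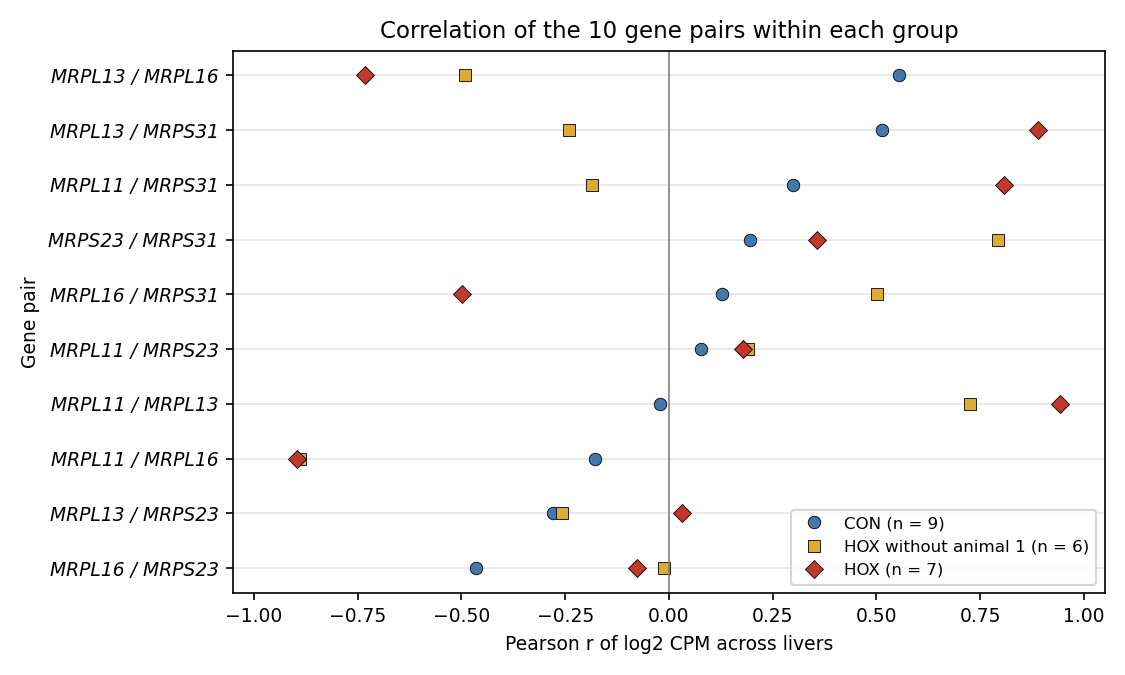
Pearson *r* of log2 CPM (horizontal axis) for each of the 10 gene pairs (vertical axis, ordered by the CON value) in 9 CON livers, 6 HOX livers without animal 1 and all 7 HOX livers. CON values lie from −0.464 to 0.554, and *MRPL13* with *MRPS31* moves from −0.241 to 0.890 when HOX animal 1 is added.

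The SD of the log2 ratio of 2 genes also depends on how much each gene varies, so it orders the pairs differently from *r*. In CON livers the SD of the log2 ratio ran from 0.152 for *MRPL13* to *MRPL16* up to 0.261 for *MRPL11* to *MRPL16*. Among the 6 HOX livers other than animal 1 it ran from 0.113 for *MRPL11* to *MRPL13* up to 0.354 for *MRPL13* to *MRPS31*. The pair with the largest SD over all 7 HOX livers was *MRPL16* to *MRPS31*, at 0.914, where it was 0.249 without HOX animal 1.

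Likeness within the set in CON livers was uneven. Averaged over the other 4, the *r* of each gene in CON livers was 0.285 for *MRPS31*, 0.192 for *MRPL13*, 0.0441 for *MRPL11*, 0.00994 for *MRPL16* and −0.118 for *MRPS23*. The mean for *MRPS31* ranked 533 among the 8580 genes, and that for *MRPS23* ranked 6280. By *r* with *MRPL13*, *MRPL16* ranked 377 and *MRPS31* 509 among all genes tested, and by *r* with *MRPL16*, *MRPL13* ranked 390. Over all 8580 genes the mean *r* with the 5 had a median of 0.0157 and a 95th percentile of 0.300. A member's mean is over 4 correlations and that of any other gene over 5, so the ranks of the means compare unlike measures. Genes with a symbol are only those of the study's table, which were called between HOX and CON. Among genes with a symbol, the 5 most like the set in CON livers were *MRAS*, *SLC39A7*, *ZNF131*, *THBS4* and *TAGLN3*, with a mean *r* of 0.408, 0.386, 0.383, 0.377 and 0.372 and ranks 30, 58, 63, 85 and 95 among all genes tested. The mean *r* of these genes in the 6 HOX livers other than animal 1 was 0.235, 0.0257, −0.105, −0.417 and 0.0240, so *ZNF131* and *THBS4* changed sign. With 9 livers these are descriptions of likeness. The 4 other mitochondrial ribosomal protein genes ranked 261 (*MRPL34*), 2381 (*MRPS22*), 2559 (*MRPL15*) and 3321 (*MRPL17*).

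Fetal sex was not used to choose the genes, so the 5 were tested for it. *MRPL11* measured 20.3 ± 1.88 CPM (SD, *n* = 4) in CON females and 19.0 ± 2.77 (*n* = 5) in CON males. In HOX it measured 16.5 ± 1.84 in the 3 females other than animal 1 and 14.6 ± 1.19 in the 3 males. Averaged over CON and HOX, the log2 difference of females from males was 0.23 (SE 0.121, edgeR adjusted *P* = 0.950) and 0.13 (SE 0.102, adjusted *P* = 0.998) without HOX animal 1. The other 4 differences were 0.23 for *MRPL13*, −0.15 for *MRPL16*, 0.02 for *MRPS23* and 0.29 for *MRPS31*, with adjusted *P* values of 0.950 to 0.984. Without HOX animal 1 they were 0.01, −0.12, 0.01 and −0.13. For *MRPL13* that value averages opposite directions. CON females had 17.2 CPM and CON males 19.4, and in HOX without animal 1 females had 15.1 and males 13.1. The means of *MRPS23* also differed in direction, with 64.6 CPM in CON females, 61.7 in CON males, 50.2 in HOX females without animal 1 and 51.3 in HOX males. None of the 5 passed the threshold, and 0.0233% of all genes tested did. That is 2 genes for which no symbol was found here, ENSOARG00020022577 and ENSOARG00020023139. Both were higher in females and were named after their values were seen.

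The interaction of sex and treatment is the log2 fold change of HOX against CON in females minus that in males, so a positive value can also mark a smaller decrease in females. It was 0.79 for *MRPL13* (SE 0.341, edgeR adjusted *P* = 0.999), the only 1 of the 5 with an unadjusted *P* under 0.05, and 0.37 (SE 0.182, adjusted *P* = 1.00) without HOX animal 1, which is female. For *MRPS31* it was 0.78 (SE 0.559) with that liver and −0.06 (SE 0.255) without it. None of the 5 genes passed, and 0.0% of all genes tested did with edgeR, where 281 genes had an unadjusted *P* under 0.05. DESeq2 called 6 genes for the interaction and 0 of the 5.

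The 4 further genes of the mitochondrial ribosome identified here were also higher in HOX animal 1 than the mean of the other HOX livers. So were 4005 of the 8580 genes tested. Of 49 large subunit genes listed 6 were found in the study's table of called genes, and of 32 small subunit genes 3 were. The 4 beyond the set were all lower in HOX, with a median log2 fold change of −0.18 in the 16 livers and −0.31 without HOX animal 1, where the median over all genes tested was 0.01 in the 16 livers. *MRPL15* (ENSOARG00020025448) had 58.0 CPM in HOX animal 1, where the remaining HOX livers had 22.4 ± 2.49 (SD, *n* = 6). *MRPL34* (ENSOARG00020011633) had 52.2 CPM in that liver and 31.3 ± 3.96 in the others. *MRPL17* (ENSOARG00020009135) and *MRPS22* (ENSOARG00020010500) had their second highest value of the 16 livers in it, at 27.2 and 42.4 CPM, inside the range of the CON livers. Of the 9 genes together, 7 were above the other 6 HOX livers' mean in HOX animal 1 by at least 0.54 on the log2 scale, and *MRPL16* and *MRPS23* were the exceptions. The 75th percentile of that difference over all genes tested was 0.35. DESeq2 called 2 of the 9 with the 16 livers, where it called 2.76% of all genes, and all 9 without HOX animal 1, where it called 6.16%, and edgeR called 0 of the 9 in both. All of these genes come from the table that was made on the same livers, so none is independent evidence of a direction.

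*TUFM* (ENSOARG00020025991), which encodes the mitochondrial elongation factor that brings aminoacyl-tRNA to the ribosome, was the translation factor found of 13 listed. It had 177 CPM in HOX animal 1, 86.0 ± 5.88 (SD, *n* = 9) in CON and 69.8 ± 4.36 (*n* = 6) in the other HOX livers. The log2 fold change of *TUFM* was −0.01 (SE 0.179) with all livers and −0.30 (SE 0.0673) without HOX animal 1, and all 6 of the other HOX livers lay below every CON liver, as in 0.198% of the genes tested. *TUFM* comes from the same table of genes called on this contrast. *MRPL13* went likewise from −0.10 to −0.38 without HOX animal 1, but only 5 of the 6 other HOX livers lay below its lowest CON liver.

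The products of the mitochondrial ribosome are the 13 proteins encoded by mitochondrial DNA, of which *ND4*, *COX1* and *COX3* were found in the study's table. They were lower in HOX livers with and without animal 1, with median log2 fold changes of −0.44 and −0.47. Their summed expression was 8551 ± 1176 CPM (SD, *n* = 9) in CON, 6165 ± 851 (*n* = 6) in HOX without animal 1 and 5614 in HOX animal 1. *COX1* had the most reads in every liver except HOX animal 1, where *COX3* had. In HOX animal 1 *COX3*, at 2141 CPM, was above every other HOX liver and 0.21 above their mean on the log2 scale, and *ND4* and *COX1* were below the mean of the other HOX livers. Reads from nuclear copies of mitochondrial DNA were not told apart from theirs.

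Of 59 nuclear genes listed for the respiratory chain and its assembly 10 were found (*NDUFA3*, *NDUFA5*, *NDUFA7*, *NDUFB5*, *NDUFB8*, *NDUFS4*, *NDUFAF1*, *COX15*, *PET100* and *HIGD2A*). All 10 were higher in HOX animal 1 than the mean of the other HOX livers, by a median of 0.78 on the log2 scale, as were 4005 of the 8580 genes tested. In 7 of the 10 it held the highest value of the 16 livers, as in 21.9% of the genes tested, and *NDUFAF1*, *COX15* and *PET100* were below their CON mean in it. Summed over the 10 genes, of which *NDUFB8* had the most reads, expression was 286 ± 25.2 CPM (SD, *n* = 9) in CON, 225 ± 18.9 (*n* = 6) in HOX without animal 1 and 402 in HOX animal 1. The median log2 fold change of the 10 genes was −0.18 with all livers and −0.38 without that liver, and all 10 were lower in HOX in both. The import and chaperone genes *TOMM6*, *TOMM40L* and *HSP10*, 3 of 18 listed, had median log2 fold changes of −0.22 with all livers and −0.34 without HOX animal 1. Their sum was 254 ± 31.6 CPM in CON, 191 ± 31.3 in HOX without animal 1 and 374 in HOX animal 1, where *HSP10* alone had 300 CPM. *TOMM40L* in that liver was below the CON mean, at 33.8 CPM.

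Genes of the cytosolic ribosome and its factors, 6 of 14 listed, did not move in the same way. *RPLP0*, *RPL12*, *EEF1A1* and *EIF4B* were higher in HOX and *RPL26L1* and *RPS27L* lower, with a median log2 fold change of 0.25 in the 16 livers and 0.24 without HOX animal 1. Their sum was 2429 ± 180 CPM (SD, *n* = 9) in CON, 2834 ± 276 (*n* = 6) in HOX without animal 1 and 3138 in HOX animal 1, with *EEF1A1* having the most reads. *RPL26L1*, which had its highest value of the 16 livers in HOX animal 1, went from −0.13 (SE 0.196) to −0.38 (SE 0.132) without it, a change like that of *MRPL13*.

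Markers of liver cell types were set beside these values. Like all lists above, they were found only through the study's table of genes called between HOX and CON in these livers, so the shared direction of a list restates that selection. Of 15 hepatocyte markers 10 were found (*AFP*, *FGG*, *VTN*, *AGT*, *C9*, *F7*, *FAH*, *ASGR2*, *SPP2* and *AGXT2*), with *FGG* having the most reads over all livers. Their summed expression was 25994 ± 3047 CPM (SD, *n* = 9) in CON, 19375 ± 2857 (*n* = 6) in HOX without animal 1 and 15458 in HOX animal 1. All 10 were lower in HOX, with a median log2 fold change of −0.49 with all livers and −0.40 without HOX animal 1. *AFP* lay far from that median, at −2.99 (SE 0.665) with all livers and −3.06 (SE 0.727) without HOX animal 1. In HOX animal 1, *AFP* and *FGG* were above the mean of the other HOX livers and the 8 other genes below it. Hepatocyte markers were thus present in every liver, and *ALB*, *APOA1*, *TTR*, *FGA* and *FGB* were not analysed here.

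Of 10 erythroid markers 4 were found, *ANK1*, *CPOX*, *TFRC* and *EPOR*, all higher in HOX with a median log2 fold change of 0.73 and, without HOX animal 1, 0.81. These genes too were found only through that table, so their direction restates the selection. Their summed expression was 297 ± 115 CPM (SD, *n* = 9) in CON, 516 ± 185 (*n* = 6) in HOX without animal 1 and 259 in HOX animal 1, with *ANK1* having the most reads over all livers. The macrophage marker *CD163*, 1 of 4 listed, had 323 ± 58.1 CPM in CON, 239 ± 54.6 in HOX without animal 1 and 61.9 in HOX animal 1, its lowest value of the 16 livers. Its log2 fold change was −0.60 (SE 0.231) with all livers and −0.44 (SE 0.142) without HOX animal 1. Of 8 endothelial and mesenchymal markers 4 were found (*CD34*, *ASPN*, *TGFBI* and *LGALS1*), and their sums were 229 ± 28.6, 223 ± 24.04 and 130.3 CPM in the same order, with *TGFBI* having the most reads over all livers and *ASPN* in HOX animal 1. The sums hide genes that differ in direction. *CD34* (1.04) and *ASPN* (0.38) were higher in HOX and *TGFBI* (−0.50) and *LGALS1* (−0.86) lower, with a median log2 fold change of −0.06 with all livers and 0.04 without HOX animal 1. The lists for hepatocytes, macrophages and endothelial and mesenchymal cells were at their lowest of the 16 livers in HOX animal 1 by mean log2 expression. The erythroid genes *HBA1*, *HBB*, *ALAS2* and *SLC4A1* and the markers *CD68*, *MARCO*, *CSF1R*, *PECAM1*, *KDR*, *COL1A1* and *COL3A1* were not analysed here. The part of these cell types, and of the library of HOX animal 1, in the values of the mitochondrial ribosomal protein genes was not tested.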

How the data were processed

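The authors prepared polyA-enriched libraries, mapped the reads with STAR (2.7.10b in the submitters' processing notes) to ARS-UI_Ramb_v1.0, a sheep assembly, and deposited raw read counts for 26478 genes, neither normalised nor filtered. The counting rule and use of strand are not given in the sources used here, so reads shared by near-identical copies, pseudogenes or overlapping genes may have been split. Condition, animal number and sex came from the labels.

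Symbols came from the identifier and symbol columns of the study's supplementary table of called genes, which pairs 438 of 487 identifiers with a symbol. The RefSeq gene table of ARS-UI_Ramb_v3.0 holds 0 of those identifiers, so no coordinates or sequences are given. The members and lists were chosen with earlier results of these data known. Named genes are the 5 members and every listed gene found in the study's table. Also named are the 5 genes with a symbol whose mean *r* with the members over the CON livers was highest. The genes called by edgeR for treatment or sex fall outside this rule and were named after their values were seen.

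A gene was tested if 8 or more livers had 250 reads or more, which 8580 genes met. The test was the quasi-likelihood F test of edgeR 4.0.16 with TMM factors and without robust estimation, in R 4.3.3, with *P* values adjusted by the Benjamini-Hochberg procedure over all genes tested and a threshold of 0.15. Log2 fold changes were not shrunken, and each SE is the fold change divided by the square root of F. Sex and its interaction with treatment were contrasts of a fit with 4 combinations of sex and treatment. Log2 CPM used a prior count of 2. Correlations were tested by exact permutation over all orders of the livers and also given without the 2 livers farthest from the median of the first-named gene. Those steps used Python 3.11.15, scipy 1.17.1, numpy 2.4.6, pandas 2.3.3 and, for plots, matplotlib 3.10.9.

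Alternatives were DESeq2 1.42.0, which the study's methods name, with its default replacement of outlier counts, RLE size factors, no filter, 250 reads in more than 8 livers, sex as a covariate, the animal number as a replicate block, another prior count for the correlations, and leaving out each liver. The tests were also run on simulated counts, where DESeq2 made more false calls than edgeR in each comparison, a larger share of its calls than the threshold allows. That was a single draw for each comparison, with the spread estimated by edgeR and no outlying liver. The planted log2 changes were 1 for treatment and sex and 2 for the interaction. The simulation therefore does not measure the share of false calls in these livers. No 2 livers differed by as little as counting noise (lowest chi-square per degree of freedom 63.2).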

Additional observations from a re-analysis of the deposited data

Results flagged for a closer look

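HOX animal 1 had the highest *MRPL13* expression of the HOX livers, 5.14 log2 CPM, and the highest *MRPS31* expression, 6.54 log2 CPM. In each gene its gap to the next HOX liver was a larger share of the range of the 7 HOX livers (0.741 for *MRPL13* and 0.651 for *MRPS31*) than Dixon's 95% critical value of 0.568 for a group of 7. For *MRPL11* the share was 0.507, below that value. Each of the 5 genes was looked at in both groups, at the highest and the lowest liver, and chance flags about 1 in 20 groups. Both values belong to the same library, so they are not separate observations. Their cause was not tested.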

How the results depend on the processing

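The log2 fold changes of *MRPL11*, *MRPL13*, *MRPL16* and *MRPS23* were negative in all 23 alternatives each, from −0.33 to −0.14, −0.38 to −0.0095, −0.40 to −0.33 and −0.35 to −0.26. That of *MRPS31* ran from −0.40 to 0.24 and was negative in 4 of 23, of which DESeq2 (−0.35) used a replaced count, 2 left out HOX animal 1 and 1 was the replicate block (−0.19). The median correlation of the pairs in CON livers was −0.0797 without CON animal 8 and up to 0.189 without CON animal 9.

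The log2 differences of females from males ran from 0.13 to 0.28 for *MRPL11*, 0.01 to 0.30 for *MRPL13*, −0.18 to −0.11 for *MRPL16*, −0.01 to 0.08 for *MRPS23* and −0.13 to 0.42 for *MRPS31*.

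The count of HOX against CON calls, 5 with edgeR, was 237 with DESeq2, 1 with no filter, 5 with RLE factors or with 250 reads in more than 8 livers, 4 with sex as a covariate, and 523 with DESeq2 without HOX animal 1. Leaving out single livers gave 1 to 47 calls, the 47 without HOX animal 5 and 12 without HOX animal 1. With the animal number as a replicate block 0 genes were called by edgeR and 756 had an unadjusted *P* under 0.05. The numbers did not pair the livers, since the correlation of same-numbered livers was −0.31 to 0.15 and only HOX animal 6 correlated best with the CON liver of its own number. For females against males the count of 2 was 7 with DESeq2, 1 with no filter, 1 to 3 without single livers and 7 with DESeq2 without HOX animal 1. The interaction count of 0 (281 genes at an unadjusted *P* under 0.05) was 6 with DESeq2 with or without HOX animal 1, a setting added after the data were seen for the sex and interaction results, and 0 to 3 without single livers, with 3 without HOX animal 4. The cause of these moves was not tested. Read counts of 316 to 3191 limited each gene's precision less than the spread between livers did.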
